A study of Agaricus bisporus with 12 samples.

Results

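The 15 genes described here are unannotated genes of the white button mushroom, Agaricus bisporus, whose transcripts stood far higher in the spawning libraries than in every later library. A gene was taken if its line gave no KEGG Orthology, if its best match in the protein database nr was a hypothetical protein, if it had at least 10 RPKM (unique reads scaled by gene length and by the library's total of such reads) in both spawning libraries, and if the lower of these values was at least 4 times the highest value of the other 10 libraries. A gene without a line in a library counted as 0. The rule chose 15 of the 4795 unannotated genes among 9502 genes in all. The spawning level and the highest later level therefore chose the genes, and their contrast is described below without a test.

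Many predicted genes of mushroom-forming fungi match no family of known function and are known only from genome annotation and transcripts. Mycelium of this species first grows through compost, feeding on straw and manure, and forms mushrooms only after a casing layer has been laid on top. Mushrooms then come in waves that growers call flushes. None of the 15 genes has a role given in the sources used here, so none is assigned below.

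All libraries came from compost colonised by strain A15, a commercial heterokaryon, and not from picked mushrooms. There were 6 stages with 2 libraries each. They began with spawning (16 days after inoculation, before casing) and pinning (when mushroom primordia form), and went on through the first flush, a time after it, the second flush and a time after that. The spawning stage differs from the others in age, in casing and in the absence of mushrooms, and these cannot be told apart. Uniquely placed reads numbered between 7.27 M and 9.34 M (mega-reads) a library, lowest at spawning. The labels do not say whether the pair of libraries at each stage comes from different beds, and p-values here cover just the spread within such pairs, which may be technical. Library codes at first flush have a different letter from the 10 other codes, so that whatever the letter marks and the stage itself cannot be told apart. In bulk RNA, fewer hyphae that express a gene and less RNA per hypha cannot be told apart.

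Together the 15 genes held 0.612% ± 0.0019 of all placed reads at spawning (SD, n = 2 libraries, here and below), 0.0436% ± 0.0031 at pinning and 0.0544% ± 0.0026 at first flush. In the last 3 stages their share was 0.0109% ± 0.0008 once the first flush was over, 0.0151% ± 0.0027 at second flush and 0.0172% ± 0.0035 at the end. Gene 190790 held 57.3% and 58.1% of the genes' own reads after second flush, and without it the share of the other 14 was 0.0073% ± 0.0016 after second flush, against 0.0115% ± 0.0019 at second flush and 0.0085% ± 0.0007 in the stage before. The 3 genes most abundant at spawning held 61.5% and 63.3% of the genes' own reads there, against 6.09% and 6.13% after second flush. In the libraries of the stages between they held 26.4% to 51.4%. As these 3 were picked by their spawning level, a high share at spawning is built in.

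Reads of these genes were still found after spawning. Of the 15 genes, 14 had a read in all 12 libraries, and 9 had at least 1 RPKM in each of the 10 later libraries. In single later libraries 9 to 14 of the 15 reached 1 RPKM, where 89.5% to 92.6% of all genes did. Some of these values rest on few reads, as in gene 138066 with 2 and 1 reads after second flush. Gene 194898 had no read in after second flush replicate 1, where 3 reads, the limit that a count of 0 allows, would be 0.809 RPKM. In the pinning libraries 7 and 5 of the genes lay above the median RPKM of the genes listed in that library, and 5 did in each first flush library. After first flush 0 and 1 of them did. The highest later value of a gene ran between 1.26 RPKM (gene 180778) and 225 RPKM (gene 196228), so the genes are described here as highest at spawning rather than as expressed at that stage alone.

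**Figure D1:**
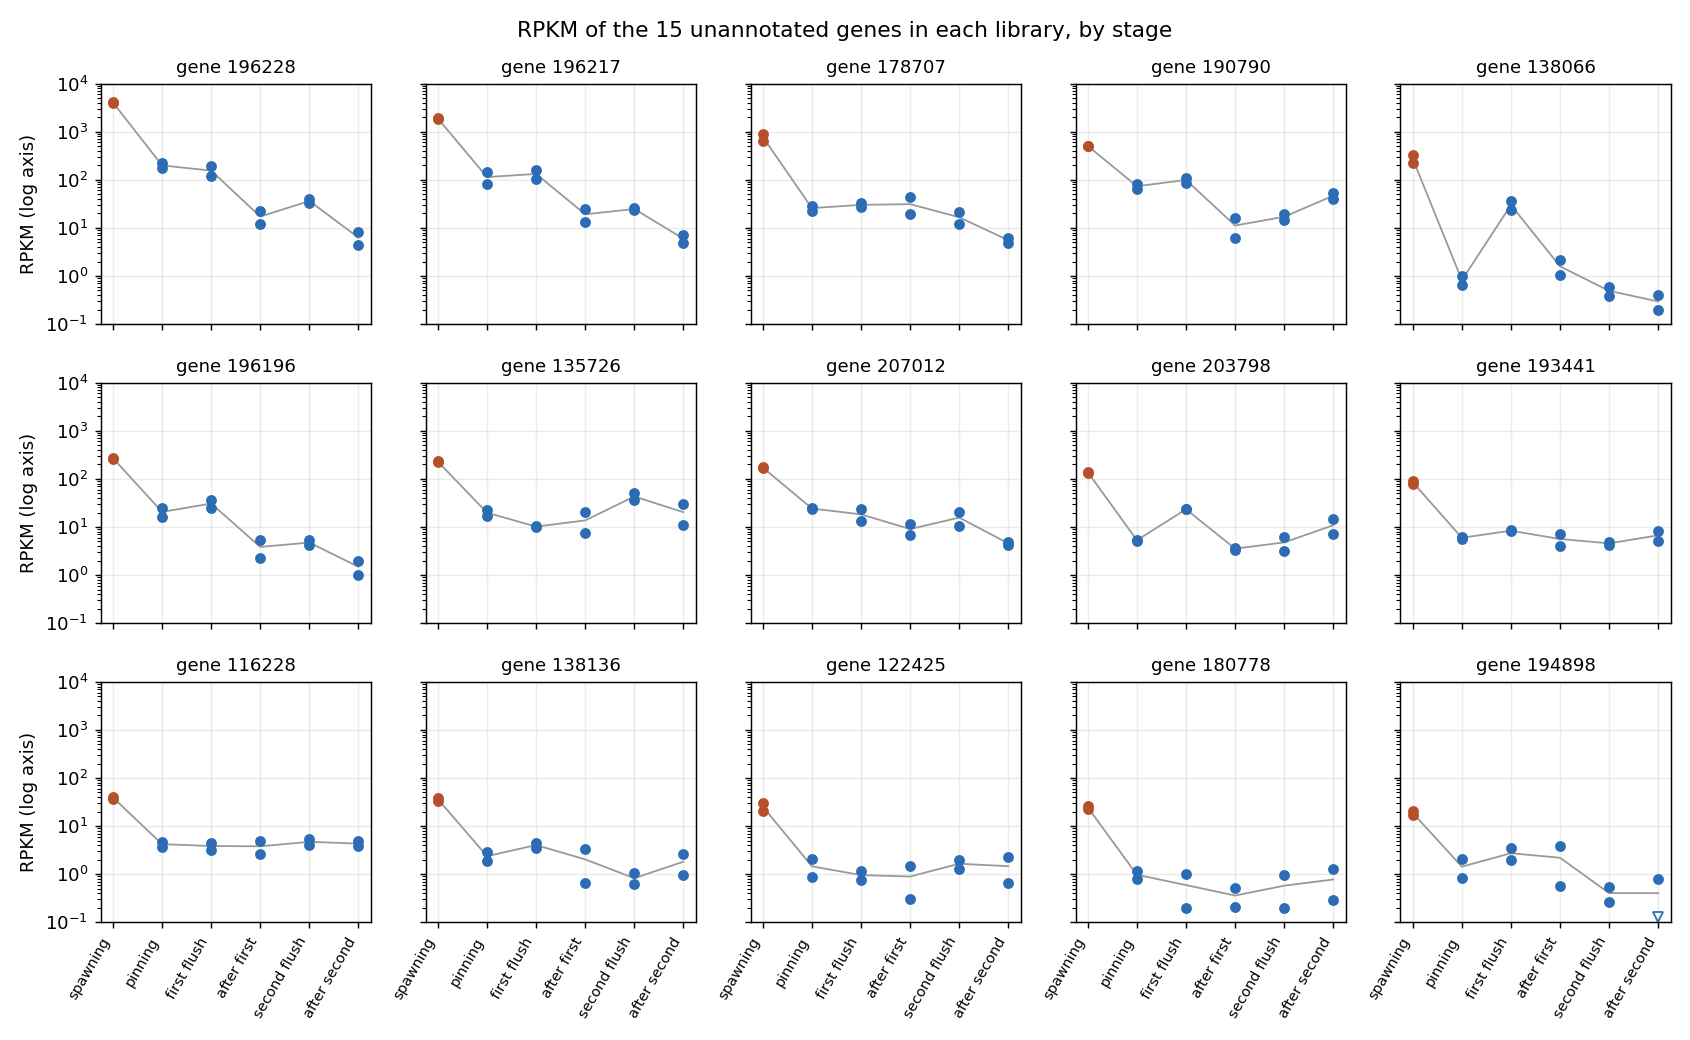
RPKM on a log axis of each of the 15 genes in every library, with spawning libraries in red, later libraries in blue and a line through the stage means; an open triangle marks the library without a read. Spawning lies on top in each panel, as the rule requires, and genes 138066, 190790 and 203798 show their highest later level at first flush.

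Gene 196228 was the most abundant of them. It had 3908 and 4175 RPKM at spawning, 225 and 174 at pinning, 117 and 193 at first flush, 22.3 and 12.03 in the time after it, 39.9 and 32.7 at second flush, then 8.27 and 4.33 after second flush. Its spawning mean ranked 10 among the 9502 genes. Gene 196217 followed with 1817 and 1935 RPKM at spawning (rank 26) and gene 178707 with 894 and 652 RPKM (rank 133). Genes 190790 (505 ± 8.4 RPKM), 138066 (272 ± 69), 196196 (270 ± 10), 135726 (228 ± 6.7), 207012 (172 ± 2.8), 203798 (138 ± 5.9) and 193441 (85.2 ± 7.6) completed the 10 most abundant. The other 5 genes averaged between 18.7 and 39.2 RPKM at spawning. In 3 genes the spawning libraries stood more than 1.3 times apart: 178707, 138066 (321 and 223 RPKM) and 122425 (30.3 and 20.2 RPKM).

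The ratio of the lower spawning value to the highest later value ran between 4.35 and 18.0. The highest ratios belonged to gene 180778 (18.0), gene 196228 (17.4), gene 178707 (15.0), gene 196217 (11.3) and gene 193441 (9.27). Just inside the threshold were genes 194898 (ratio 4.35), 135726 (4.44) and 190790 (4.49). Just outside it were the unannotated genes 194662 (3.79), 195007 (3.76) and 138064 (3.72). Gene 194662 had 2273 and 2190 RPKM at spawning and missed the rule through after second flush replicate 2 alone, at 578 RPKM (525 RPKM in replicate 1). The rule took RPKM without scaling between libraries. The scaling factors of edgeR (TMM) were 0.861 and 0.834 at spawning and 0.925 to 1.109 later. Ratios of scaled values would therefore be higher, and genes 194662, 195007 and 138064 would then meet the threshold. Which genes were taken near the threshold thus depends on the scaling.

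**Figure D2:**
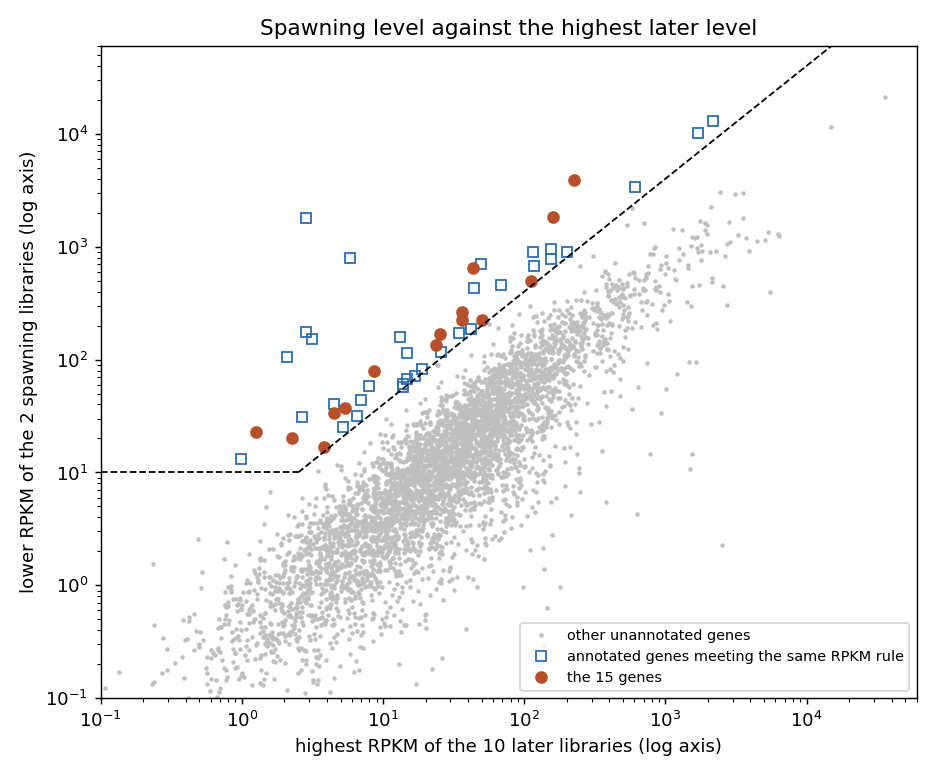
The lower RPKM of the 2 spawning libraries against the highest RPKM of the 10 later libraries, both on log axes, for unannotated genes (grey), the 15 genes (red) and annotated genes that meet the same RPKM rule (blue squares); dashed lines mark 10 RPKM and the ratio of 4. Genes listed at 0 in all libraries of an axis are not drawn, and the red points spread along the line between ratios of 4.35 and 18.0.

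The differences among the 5 later stages were not used by the rule, which only sets a ceiling on them, and they were tested in counts with edgeR's quasi-likelihood model over all genes. Of the 15 genes, all tested, 9 changed among the later stages at a Benjamini-Hochberg adjusted p under 0.05, a share of 60%, against 70.6% of all 8814 genes tested. Of these 9 calls 7 held in every setting, that of gene 178707 was lost without after second flush replicate 1 (edgeR adjusted p = 0.07), and that of gene 135726 (edgeR adjusted p = 0.0294) was lost without any of the 4 libraries of the first and second flush in turn, at up to 0.14 (without second flush replicate 2). Over all 15 genes the highest later library was a first flush library in 7, and a library of each other later stage in 2. The lowest was an after second flush library in 7 genes and an after first flush library in 5. These counts come from RPKM without scaling between libraries and include the genes without a call. The like counts over all genes were not made, so neither stage is shown to be particular to the 15.

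By step, genes 138066 and 203798 rose at first flush against pinning and none fell, where edgeR called 25.1% of all genes higher and 23.6% lower. After first flush against first flush 7 of the 15 genes fell (138066, 196228, 190790, 196196, 196217, 203798 and 207012) and none rose, where 26% of all genes were called lower and 26.1% higher. The genes' median log2 change in that step was -1.0, against -0.01 over all genes. At second flush against after first flush genes 135726 and 196228 rose and none fell, where 11.3% of all genes were called higher and 11% lower. After second flush against second flush 3 genes fell (196228, 196217 and 207012) and none rose, where 2.89% of all genes were called lower and 5.29% higher. After second flush against pinning 5 genes fell (196228, 196217, 196196, 207012 and 178707) and none rose, where 13% of all genes were called lower and 14% higher. Neighbouring comparisons share libraries, so that high first flush values enter both the step to that stage and the step away from it.

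At an unadjusted p under 0.05 edgeR put no gene in the first 3 of these directions without a call (lower at first flush, higher in the time after it and lower at second flush), and DESeq2 called 0 there. For the directions without a call after second flush, edgeR put 2 genes higher against second flush and 1 higher against pinning at that unadjusted p, and DESeq2 called 2 and 1. The shares of all genes at the unadjusted p and with DESeq2 were not counted. Of the 19 calls, 13 held in all 6 alternative settings and without each of the 12 libraries in turn.

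**Figure D3:**
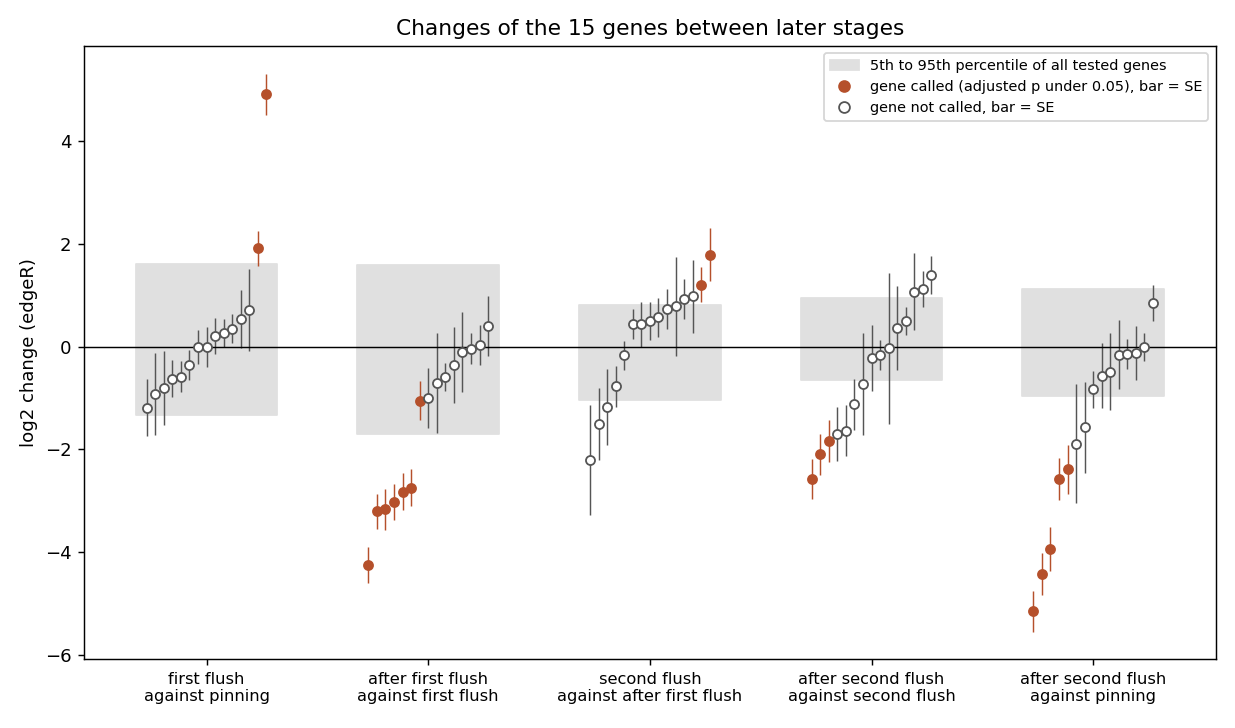
The log2 change of each of the 15 genes (points with SE bars, red where called) in 5 comparisons between later stages, beside the 5th to 95th percentile of all tested genes (grey). The red points of the step after first flush lie between -4.24 and -1.05, and those of after second flush against pinning between -5.16 and -2.39.

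Genes 196228, 196217 and 196196 ran a like course: all 3 fell after first flush and were lower after second flush than at pinning. Gene 196217 had 1817 and 1935 RPKM at spawning, 146 and 82.5 at pinning, 105 and 161 at first flush, 24.8 and 13.5 in the time after it, 26.3 and 23.2 at second flush, then 7.08 and 4.84 after second flush. Gene 196196 had 263 and 277 RPKM at spawning, 24.9 and 16.4 at pinning, 25.4 and 36.0 at first flush, 5.42 and 2.28 in the time after it, 4.21 and 5.28 at second flush, then 1.99 and 0.990 after second flush. In all 3 genes every pinning and first flush library lay above every library of the last 3 stages.

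After first flush against first flush gene 196228 fell by 3.21 on the log2 scale (SE 0.35, edgeR adjusted p = 6.38e-05), gene 196217 fell by 2.82 (SE 0.36, edgeR adjusted p = 0.000219) and gene 196196 fell by 3.03 (SE 0.36, edgeR adjusted p = 6.09e-05). After second flush against pinning the falls were larger, at log2 -5.16 in gene 196228 (SE 0.39, edgeR adjusted p = 6.84e-05), log2 -4.43 in gene 196217 (SE 0.41, edgeR adjusted p = 0.00027) and log2 -3.94 in gene 196196 (SE 0.43, edgeR adjusted p = 0.000282). These 6 calls held in every alternative and without each library. Gene 196228 also rose at second flush against after first flush (log2 1.21, SE 0.35, edgeR adjusted p = 0.0346), a call lost in 2 of 6 alternatives and in 5 of 12 fits without a library (up to 0.15, without after first flush replicate 2). It then fell after second flush (log2 -2.57, SE 0.39, edgeR adjusted p = 0.00467). Gene 196217 fell in that last step too (log2 -2.10, SE 0.41, edgeR adjusted p = 0.0158), but the call was lost without any 1 of the 4 libraries compared (up to 0.086, without after second flush replicate 1). Gene 196196 stood at 1.99 and 0.990 RPKM after second flush, against 4.21 and 5.28 at second flush, a difference that was not called (edgeR adjusted p = 0.072).

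The 3 genes also lie near each other. In the gene order of the H97 strain's RefSeq annotation they fall in a single stretch of 78 genes, with 37 genes between 196196 and 196217 and 17 between 196217 and 196228. Scaffold names are not in that table, so a stretch was read as a run of genes with rising start positions. No other gene of the stretch met the RPKM rule. Of the 57 genes from the first to the last of the 3, however, 6 had a ratio of at least 2. These 6 include the 3 genes and had at least 10 RPKM in both spawning libraries. Over the 10 later libraries the Pearson correlation of their log2 RPKM (plus 0.1) was between 0.971 and 0.990 for the 3 pairs, while the other 102 pairs of the 15 genes ran between -0.805 and 0.929 with a median of 0.204. The points share libraries, 2 to a stage, so this is a description. Whether the 3 genes share sequence, and so reads, was not tested.

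**Figure D4:**
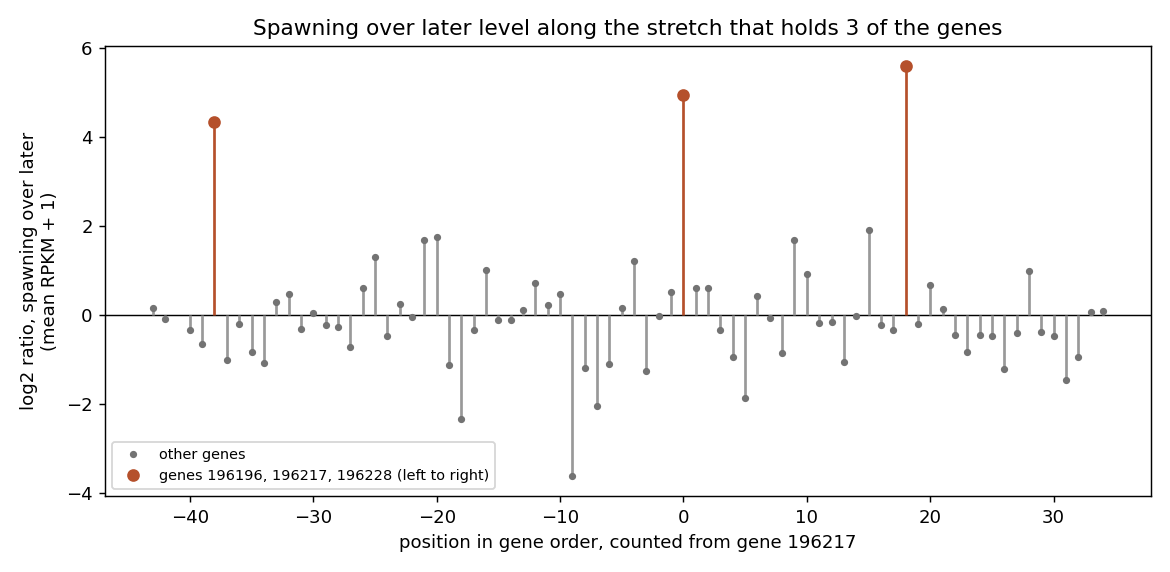
Log2 ratio of the mean spawning RPKM over the mean later RPKM (each plus 1) for the genes of this stretch, in gene order counted from gene 196217. The 3 red genes lie at 4.35, 4.96 and 5.59, and the ratios of the other genes lie on both sides of 0. The rule chose the red genes by their spawning and later levels, so their place on top is no separate result.

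Gene 207012 followed a course like theirs, with a Pearson r of 0.856 to 0.902 with the 3 genes over the later libraries. Gene 207012 had 174 and 170 RPKM at spawning, 25.3 and 23.2 at pinning, 13.4 and 23.2 at first flush, 11.3 and 6.84 in the time after it, 10.5 and 20.9 at second flush, then 4.15 and 4.96 after second flush. Its fall after second flush against pinning (log2 -2.58, SE 0.41, edgeR adjusted p = 0.00301) held in every setting. The smaller fall after first flush (log2 -1.05, SE 0.39, edgeR adjusted p = 0.0465) was lost in 4 of 6 alternatives and in 8 of 12 fits without a library, at up to 0.29 (without first flush replicate 2). The fall after second flush against second flush (log2 -1.84, SE 0.42, edgeR adjusted p = 0.0295) was lost in 7 of these 12 fits, at up to 0.22 (without after second flush replicate 1).

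Gene 138066 had few reads at pinning and rose at first flush. It had 321 and 223 RPKM at spawning, 1.0 and 0.638 at pinning (5 and 3 reads), 36.3 and 23.4 at first flush (181 and 118 reads), 2.15 and 1.03 in the time after it, 0.595 and 0.387 at second flush, then 0.393 and 0.196 after second flush (2 and 1 reads). The first flush libraries lay above all 8 other later libraries by more than 10 times. The rise against pinning was 4.91 on the log2 scale (SE 0.40, edgeR adjusted p = 4.96e-06), and after first flush the gene fell by 4.24 (SE 0.35, edgeR adjusted p = 4.66e-06). Both calls held in every alternative and without each library.

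The unannotated gene 138064, just outside the threshold, gave a like series. It had 288 and 208 RPKM at spawning, 0.997 and 0.848 at pinning, 55.8 and 24.5 at first flush, and between 0.395 and 1.71 RPKM in the last 6 libraries. It lies close to gene 138066 in the H97 gene order, with 5 genes between, and the gene lengths are 556 and 554 bases. The Pearson r of the pair over the 10 later libraries was 0.971. Whether the pair shares sequence, and so reads, was not tested.

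Genes 190790 and 203798 fell after first flush, and their values at the end lay above those of the second flush. Gene 190790 had 511 and 499 RPKM at spawning, 64.1 and 83.1 at pinning, 111 and 87.2 at first flush, 6.22 and 16.2 in the time after it, 14.4 and 19.6 at second flush, then 53.1 and 40.3 after second flush. Gene 203798 had 142 and 134 RPKM at spawning, 5.15 and 5.47 at pinning, 23.2 and 23.5 at first flush, 3.70 and 3.40 in the time after it, 3.24 and 6.32 at second flush, then 14.7 and 7.0 after second flush. In gene 203798 the lower after second flush value, 7.0 RPKM, was close to the higher second flush value, 6.32 RPKM. Neither gene's change in this step was called by edgeR, as given below.

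Gene 203798 rose at first flush against pinning (log2 1.91, SE 0.34, edgeR adjusted p = 0.00177), whereas gene 190790 stood at 99.2 ± 17 RPKM at first flush against 73.6 ± 13 at pinning and was not called (edgeR adjusted p = 0.658). After first flush gene 190790 fell by 3.17 (SE 0.39, edgeR adjusted p = 0.000207) and gene 203798 fell by 2.75 on the log2 scale (SE 0.36, edgeR adjusted p = 0.000259). After second flush against second flush the change was 1.40 in gene 190790 (SE 0.37, edgeR adjusted p = 0.0536) and 1.12 in gene 203798 (SE 0.35, edgeR adjusted p = 0.0892), and neither was called by edgeR. The difference between the step after the second flush and that after the first was called for both genes, at 4.57 in gene 190790 (SE 0.54, edgeR adjusted p = 0.000263) and 3.86 in gene 203798 (SE 0.50, edgeR adjusted p = 0.000416), where 39.4% of all genes were called in either direction. This comparison was added after the steps had been seen. Gene 203798 is the 1 gene of the 15 with a Gene Ontology term, in the broad classes of binding, catalytic activity and primary metabolic process.

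Gene 135726 had its later maximum at second flush. It had 223 and 232 RPKM at spawning, 23.0 and 16.6 at pinning, 10.03 and 10.3 at first flush, 20.05 and 7.36 in the time after it, 35.9 and 50.2 at second flush, then 10.9 and 29.8 after second flush. The second flush libraries lay above all other later libraries. The rise against after first flush (log2 1.79, SE 0.52, edgeR adjusted p = 0.0406) was lost in 2 of 6 alternatives and in 9 of 12 fits without a library, at up to 0.18 (without second flush replicate 2). Its neighbour in the gene order, the unannotated gene 135725, had 83.3 and 152 RPKM at second flush and 252 ± 6.6 RPKM at spawning, and the pair correlated at 0.853 over the later libraries. With the neighbour on its other side, gene 203648, gene 135726 correlated at 0.227.

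Gene 178707 was lowest at the end. After 894 and 652 RPKM at spawning it had 28.9 and 22.7 RPKM at pinning, 32.5 and 27.7 at first flush, 19.1 and 43.3 in the time after it, 11.8 and 21.4 at second flush, then 4.93 and 6.14 after second flush. The fall after second flush against pinning (log2 -2.39, SE 0.48, edgeR adjusted p = 0.00797) was lost without pinning replicate 1 (0.06) or after second flush replicate 1 (0.072). Gene 178707 lies next to gene 193057, a hydrophobin, one of the small secreted proteins that coat fungal surfaces. The hydrophobin gene stood at 18727 ± 1129 RPKM at spawning, 17191 ± 783 at pinning and 2419 ± 663 after second flush.

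The 6 other genes were not called over the later stages. In later libraries they had between 0 and 91 reads and at most 8.61 RPKM. Gene 193441 had 90.5 and 79.8 RPKM at spawning and between 4.0 and 8.61 RPKM later, and its after-flush steps differed by log2 1.09 (SE 0.39, edgeR adjusted p = 0.0426), a call lost in 10 of 12 fits without a library. Gene 116228 had 41.2 and 37.3 RPKM at spawning and was the most even afterwards, between 2.67 and 5.36 RPKM in all 10 later libraries. Gene 138136 had 33.9 and 38.6 RPKM at spawning and between 0.611 and 4.50 RPKM later. None of these genes has a Gene Ontology term, nor have the 3 with the lowest spawning levels. Gene 122425 had 30.3 and 20.2 RPKM at spawning and between 0.310 and 2.27 RPKM later. Gene 180778 had 26.2 and 22.7 RPKM at spawning and between 0.196 and 1.26 RPKM later, which was 2 to 13 reads. Gene 194898 had 20.8 and 16.7 RPKM at spawning, from 61 and 50 reads, and at most 3.83 RPKM later.

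The best nr match of 14 genes carried the gene's own number in strain H97. The exception was gene 194898, whose match was gene 194884, and its unique reads are uncertain if the pair shares sequence, which was not tested. Gene 194884, with 10 genes between, had at most 4 reads in any library. Next to gene 194898 is gene 194897, also unannotated, at 4.24 and 1.91 RPKM at spawning and at most 1.13 RPKM later.

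The 15 genes fell into 11 stretches of the H97 gene order, and the closest pair among them, 196217 and 196228, had 17 genes between. Among 29 immediate neighbours present in the tables, 0 met the RPKM rule, and among 138 neighbours within 5 genes also 0, where 0.505% of all genes meet it. Just beyond that window, 2 annotated genes that meet the rule lay near gene 135726: gene 203659, annotated as a choline dehydrogenase, with 7 genes between, and laccase-3 (gene 184981) with 9 between. The immediate neighbours' median log2 ratio of spawning over later RPKM was -0.185, against -0.308 for all genes and 3.57 for the 15 genes.

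Their lengths ranged from 404 to 2542 bases with a median of 1107, against 1029 for all unannotated genes and 1248 for all genes. Of the 15 genes, 6 were under 600 bases (40%), among them 196228, 178707, 138066, 196196 and 135726, against 22.1% of unannotated genes. That mark was chosen after the lengths had been seen.

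Reads did not cover all of some gene models. Gene 196196 had 71.0% of its length covered by 1046 reads in spawning replicate 1 and 87.4% by 1128 reads in replicate 2, yet 88.5% by 180 reads in first flush replicate 2. Genes with a like number of reads in spawning replicate 1 (within 1.5 times, 1092 genes) had a median of 98.8% covered, and 5 of them had less than gene 196196. Gene 196217 had 87.1% and 84.6% covered at spawning by 9754 and 10627 reads, where genes of like depth had a median of 99.6%. RPKM spreads the reads over the whole deposited length, so the level per covered base is higher than stated in such genes.

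The same RPKM rule was met by 33 annotated genes, led by the laccase-2 small subunit (gene 149407, 13140 ± 275 RPKM at spawning) and laccase-2 (gene 139148, 10478 ± 366 RPKM). Laccases are secreted phenol oxidases, which fungi use on lignin and other phenols. The ratio of the lower spawning value to the highest later value ran from 4.17 (gene 72370) to 623 (gene 137057) in the 33. In the 15 unannotated genes it reached 18.0. Of these 33 genes 15 fell after first flush (45.5%) and 2 rose, against 7 (46.7%) and 0 of the 15 unannotated genes. At first flush against pinning 8 of the 33 (24.2%) fell and 4 rose, against 0 and 2 of the 15. At second flush against after first flush 0 of the 33 fell and 8 (24.2%) rose, against 0 and 2 (13.3%) of the 15. After second flush 3 of the 33 fell and 2 rose against second flush, where 3 and 0 of the 15 did, and 7 fell and 3 rose against pinning, where 5 and 0 of the 15 did. No test of a difference between the lists was made, as both were chosen on these libraries.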

How the data were processed

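The authors deposited a table per library with unique read counts per gene, gene length, coverage, RPKM and annotation, per the file headers. The deposited counts are whole and sum to the total in each header. The deposited RPKM values equal count over length over that total within 1e-07, with no scaling between libraries. Coverage is deposited as a percent of gene length. The aligner, strandedness and genome build were not given in the sources used here, so overlapping genes and close paralogs are uncertain. For 112 genes the annotation differed between libraries, none of them among the 15.

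Genes passing edgeR's filterByExpr (minimum count 10, total 15; 8814 genes, all 15 included) entered the robust quasi-likelihood fit of the 12 libraries with 6 stage means (6 residual degrees of freedom), after TMM scaling with factors between 0.834 and 1.109, and Benjamini-Hochberg adjustment over all tested genes. The SE given with a log2 change was computed as its absolute value over the square root of the quasi-likelihood F. The procedure was run on simulated counts with changes planted at first flush alone, in genes that were not of low count. It was read for first flush against pinning, so the other comparisons and genes of few reads were not covered. Gene order came from RefSeq (H97 assembly, 9440 of 9502 genes matched, all 15 included). No gene or protein sequence was used, so planned protein and promoter comparisons were not made. Named were the 10 most abundant genes, the 5 highest ratios, those next to the threshold, those most changed in a comparison, and gene neighbours; the few others were chosen after their values were seen. The members, lists and comparisons were chosen with earlier results of these data known. Alternatives were DESeq2, its size factors, no filter, a replicate block, the 10 later libraries alone, no scaling (added after the data were seen), and each library left out. Software: R 4.3.3, edgeR 4.0.16, limma 3.58.1, DESeq2 1.42.0, Python 3.11.15.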

Additional observations from a re-analysis of the deposited data

Results flagged for a closer look

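Of the 15 genes, 3 moved differently after the second flush than after the first, by a test of that difference in edgeR's quasi-likelihood model. This is a lower share than the 39.4% called among all genes tested. The comparison was added after the steps had been seen. The log2 change after second flush against second flush exceeded that after first flush against first flush by 4.57 in gene 190790 (SE 0.54, edgeR adjusted p = 0.000263), where the libraries were higher than their flush in the later step and lower in the earlier one. In gene 203798 the difference was 3.86 (SE 0.50, edgeR adjusted p = 0.000416), with the same directions. In gene 193441 it was 1.09 (SE 0.39, edgeR adjusted p = 0.0426), and that call was lost in 2 of 6 alternatives and in 10 of 12 fits without a library (up to 0.18, without after second flush replicate 1). The first flush libraries, with their own code letter, enter each of these differences.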

How the results depend on the processing

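No called change reversed its direction in any of the 6 alternatives or without any of the 12 libraries. The number of genes meeting the rule was 53 at a ratio of 2 and 6 at a ratio of 8, and 15 to 18 without 1 library. RPKM with TMM scaling would add genes, as given above. With DESeq2, 2 genes were higher and 5 lower after second flush against second flush, 1 was higher after second flush against pinning, and 6 differed between the after-flush steps. Shares over all genes were counted for the main edgeR fit alone. The counts of other settings therefore show nothing particular to the 15 genes. For second flush against after first flush, 1 gene was higher with the replicate block, 1 without scaling and 0 in the fit over the 10 later libraries, and without scaling 1 was higher after second flush against second flush; the causes were not tested. Without 1 library, in fits where a stage's lone library is assumed to vary like the others, the ranges were 2 to 2 higher and 0 to 1 lower at first flush against pinning, 0 to 0 higher and 6 to 8 lower after first flush, 0 to 2 higher and 0 to 2 lower at second flush, 0 to 1 higher and 1 to 5 lower after second flush, 0 to 1 higher and 4 to 6 lower after second flush against pinning, 8 to 12 changed among later stages and 2 to 5 different between the after-flush steps. Same-numbered libraries did not deviate together (correlations -0.239 to 0.204, 1 of 15 over 0.1), so the replicate block pairs libraries by number alone. Unscaled totals moved the median of all genes by 0.22 on the log2 scale at first flush against pinning, 0.17 after second flush against pinning and -0.13 at second flush against after first flush. Of the 150 values in later libraries, 42 rest on under 20 reads, which limits their precision.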
